A study of Sus scrofa with 9 samples.

Results

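Circular RNAs that were counted in porcine MII oocytes, in PN embryos and in sperm alike were described, 82 of the 3071 circRNAs in the deposited table. A circRNA was taken when its count was above 0 in at least 1 MII oocyte, at least 1 PN embryo and at least 1 sperm library. The members were chosen by these counts, so their counts and shares are a description, and they came from 73 of the 1727 host genes in the table. The study sequenced total RNA of the 3 kinds of sample, with 3 labelled libraries each, and asked which sperm RNAs are found in the embryo after fertilization. MII oocytes were matured pig oocytes at metaphase II, freed of cumulus cells, with 10000 oocytes in the RNA isolation. The study took its oocytes from ovaries of postpubertal Long White gilts. PN embryos were 1-cell embryos with pronuclei, taken at 18 h after IVF began, again with 10000 embryos in the isolation. Sperm were purified mature cells from fresh semen of Large White boars, whereas IVF itself used fresh semen of Landrace boars, all aged 2 to 3 years. All groups were labelled as untreated. The RNA came from pooled cells, and nothing in the labels says that the replicates came from separate animals or cultures, so that p-values measure only the spread between these libraries, which may be technical.

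A circRNA forms when the splice site at the end of an exon is joined backwards to one that lies before it in the gene, which closes the RNA into a loop without free ends. Such loops resist exonucleases and can outlast the linear mRNA of the same gene, and a sequencing read can be assigned to the loop only where it crosses the back-splice junction. MII oocytes live on stored maternal RNA, transcription has largely stopped in mature sperm, and a pronuclear embryo contains the cytoplasm of the oocyte and what the sperm brought in. A circRNA is named here by its number in the table, followed by its host gene, the gene whose transcript gives the loop. Host gene positions are those of the RefSeq annotation of Sscrofa11.1, which placed 66 of the 73 host genes, and the positions of the loops within their genes were not analysed here.

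Of the members, circRNA686 from MAN1A2, a mannosidase of the Golgi apparatus (chromosome 4, 103214929 to 103377132), was among the circRNAs the study examined by PCR. The study's divergent primers for it are shown because they mark the feature that defines a circRNA: they point away from each other on the linear transcript and give a product only across the junction of the loop.

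circRNA686 forward: aagtattgccgagtcagcagt

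circRNA686 reverse: ttcgatagccagtgctgct

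The counts of circRNA686 were 0, 2 and 1 in the MII oocyte libraries, 0, 0 and 75 in the PN embryo libraries, and 224 and 337 in sperm. It was thus counted in oocytes, although at 2 counts or fewer, and in PN embryos it was seen in replicate 3 alone. In the study's qPCR it was minimal in MII oocytes and high in sperm, and MII oocytes and PN embryos did not differ significantly. The study also reported RNase R treatment and Sanger sequencing for this loop. Sperm and MII oocytes did not overlap in the share of the library that it held, and the log2 fold change of 5.29 ± 2.08 (SE) had an adjusted p of 0.0524 (edgeR). Here and below, the SE of a fold was derived from the edgeR test statistic and is not a fitted standard error.

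The circRNA counts of sperm replicate 3 repeated those of replicate 1 for 3071 of 3071 circRNAs, and both were counted as 1 sample, which left 2 sperm libraries and 8 libraries in all. In the lncRNA table the corresponding sperm columns were equal for 0.262% of the transcripts above 0, so the repeat was one of the circRNA column. The circRNA counts summed to 22809 to 26200 in the oocyte and embryo libraries, and to 155731 and 167851 in sperm. Because of this difference in depth, counts are given beside the share of the library, the percentage of all circRNA counts in that library. A count of 0 allowed a share of up to 0.0115% to 0.0132% in oocytes and embryos, and of up to 0.00179% to 0.00193% in sperm (3 counts of the total). In such bulk samples, fewer cells of a type and less RNA per cell cannot be told apart. Among markers of the labelled cells, NLRP5, ZP2 and ZP3 of 10 oocyte genes had circRNAs, which summed to 0 in both sperm libraries and to 0 to 78 in the others. LDHC, ODF2, SPAG16 and ZPBP of 15 sperm genes had circRNAs, which summed to 1024 and 591 in sperm and to 0 to 158 elsewhere, and none of 7 cumulus genes had any.

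The 82 members were 2.67% of the circRNAs in the table. They were 6.55% to 9.48% of the circRNAs found in an MII oocyte library, 8.94% to 9.69% of those in a PN embryo library, while the sperm libraries gave 11.0% and 9.15%. In MII oocytes they held 21.9%, 22.6% and 24.9% of the library, with a mean of 23.1% ± 1.57 (SD, n = 3). In PN embryos they held 31.1%, 27.7% and 33.5%, with a mean of 30.8% ± 2.95 (SD, n = 3). In sperm they held 26.5% and 18.8%, with a mean of 22.6% ± 5.48 (SD, n = 2). Every PN embryo library was above every MII oocyte library, and the sperm libraries lay on both sides of the oocyte range. This order rested on a single circle. Without circRNA450 from UBAP2, the members held 8.01% ± 0.966 of the oocyte libraries and 9.06% ± 1.74 of the embryo libraries, ranges that overlapped.

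**Figure D1:**
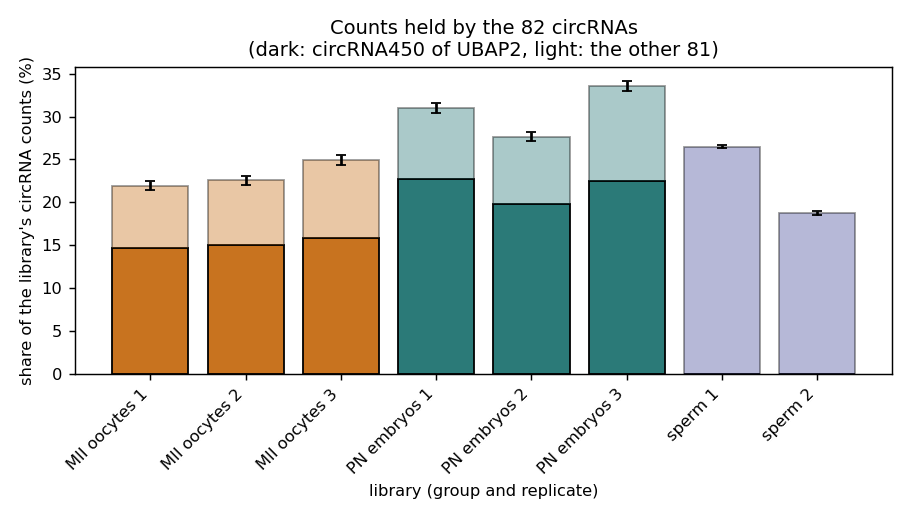
Percent of all circRNA counts held by the 82 members (y axis) in each of the 8 distinct libraries (x axis), with circRNA450 (UBAP2) in dark and the other 81 members in light, and 95% Wilson intervals of the total, which cover counting error only. The dark part is 14.6% to 22.7% in oocytes and embryos and close to 0 in sperm, whose 26.5% and 18.8% come from other members.

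The members were 5.56% of the 1476 circRNAs found in MII oocytes, 6.27% of the 1308 found in PN embryos and 8.17% of the 1004 found in sperm. MII oocytes and PN embryos shared 474 circRNAs, and 17.3% of these were also found in sperm. A further 58 circRNAs were found in MII oocytes and sperm but not in PN embryos, and 103 in PN embryos and sperm but not in MII oocytes. The larger classes were those found in a single group, with 944 circRNAs in MII oocytes, 731 in PN embryos and 761 in sperm.

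Most members were not found in every library of a group. In MII oocytes 37 members were above 0 in 1 library, 23 in 2 and 22 in all 3, so that 26.8% recurred in all, against 5.01% of all circRNAs found in oocytes. In PN embryos the numbers were 37, 20 and 25, and 30.5% recurred in all 3 libraries against 5.66% of all circRNAs found there. In sperm 32 members were above 0 in both libraries, which is 39.0% against 12.5%. The rule itself favours circRNAs that are easily detected, so that no test was made of these differences. Members with a high count in 1 library were often at 0 in the others of the group: of 55 members with at least 50 counts in a sperm library 25 were at 0 in the other, and of 36 and 30 such members in PN embryos and MII oocytes 12 and 6 were. Among all circRNAs with at least 50 counts, 83.2% in sperm, 62.5% in PN embryos and 58.5% in MII oocytes were at 0 in the other libraries of the group.

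**Figure D2:**
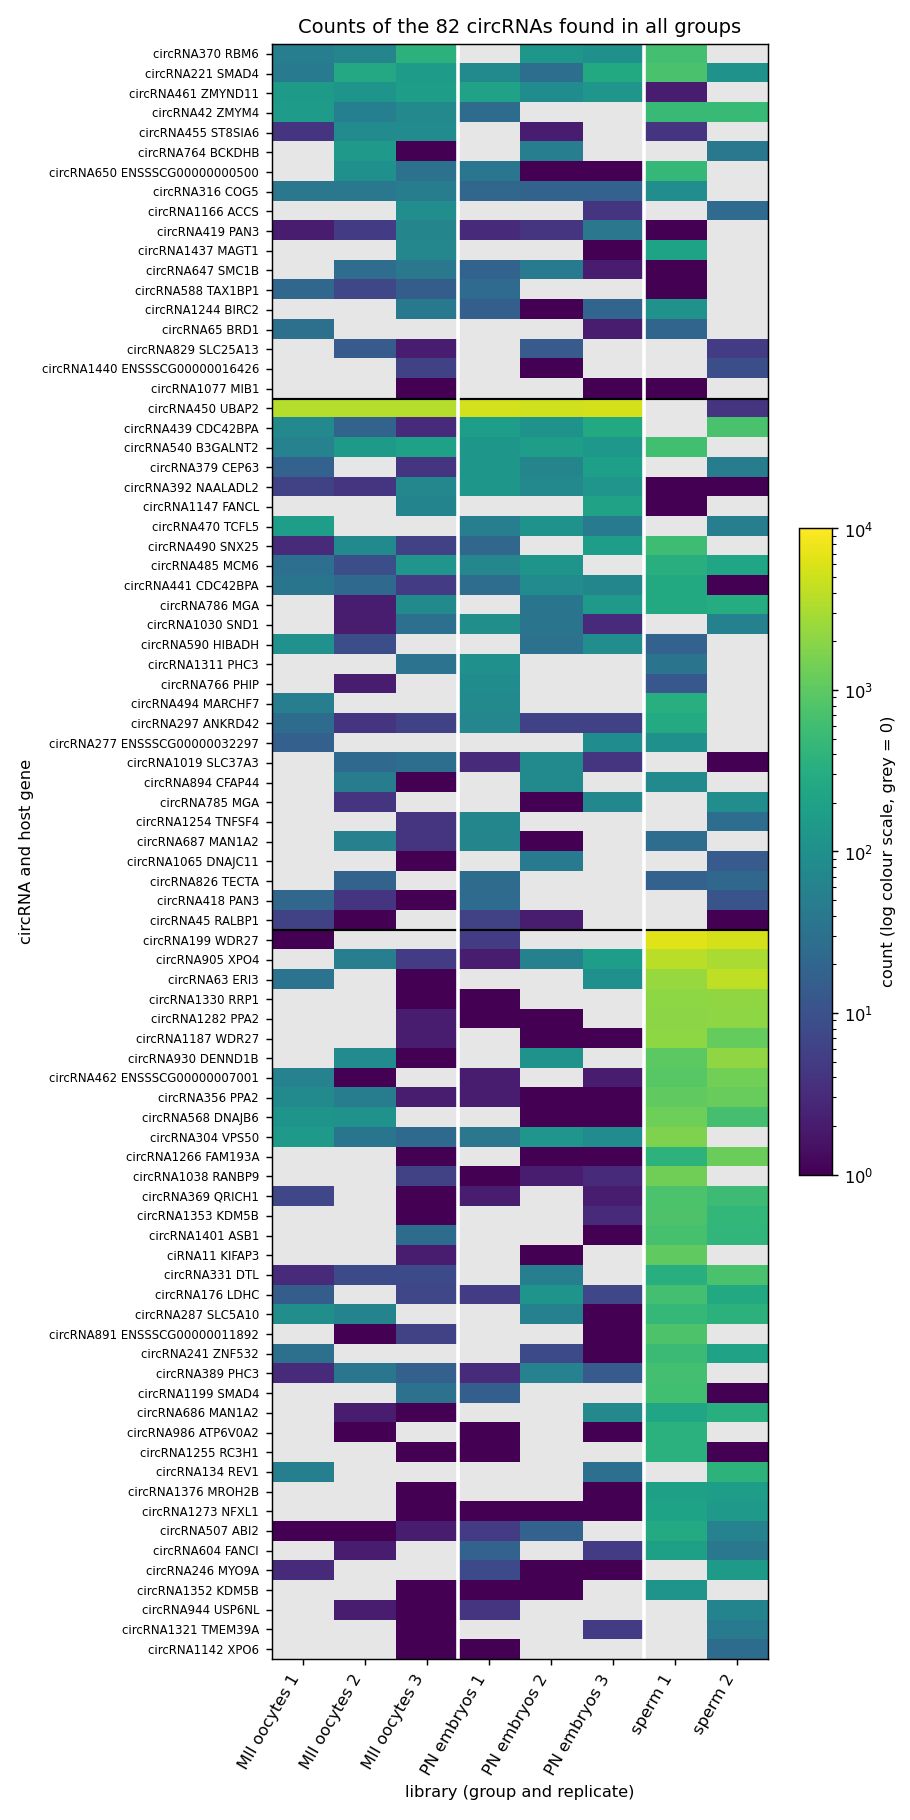
Counts of the 82 members (rows, named by host gene) in the 8 distinct libraries (columns), coloured by count on a log scale (yellow high, purple low, grey 0) and ordered by the group with the highest mean share. UBAP2 is yellow in the 6 oocyte and embryo libraries, WDR27, XPO4, ERI3, RRP1 and PPA2 are bright in both sperm libraries, and many rows are coloured in 1 library of a group and grey in the next.

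Detection rested unevenly on the libraries. MII oocyte replicate 3 was the only oocyte library above 0 for 24 members, against 8 for replicate 1 and 5 for replicate 2, and it held 19 members at exactly 1 count, against 2 and 5. In PN embryos, replicates 1, 2 and 3 were the only library above 0 for 14, 9 and 14 members. In sperm, replicate 1 was the only one for 30 and replicate 2 for 20. Without MII oocyte replicate 3 the rule found 58 circRNAs, and without sperm replicate 1 it found 52. A single count in a whole group brought in 24 members, 13 in MII oocytes, 10 in PN embryos and 7 in sperm, and circRNA1077 from MIB1, an E3 ubiquitin ligase of Notch signalling, had 1 count in each group. With at least 10 counts in a library of each group, 34 members were left.

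**Figure D3:**
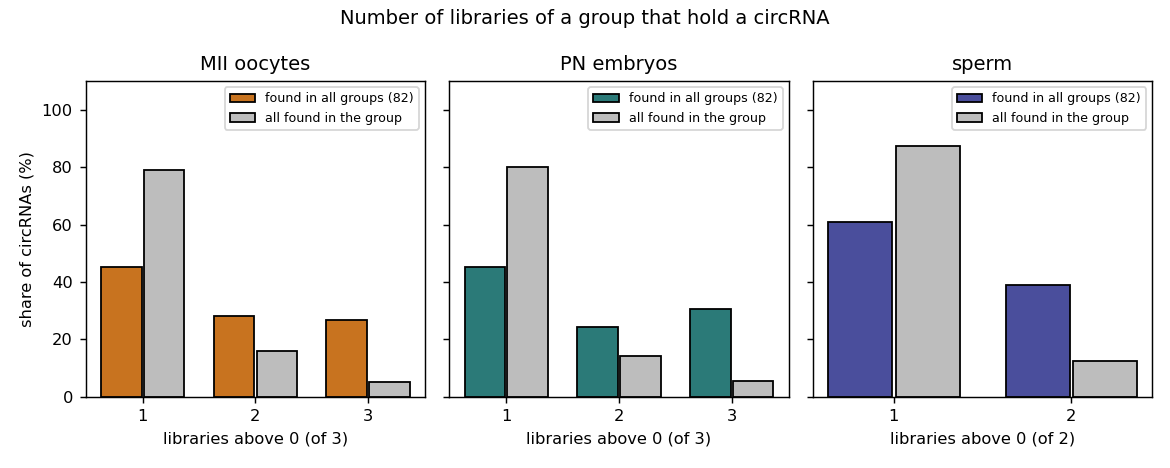
Percent of circRNAs (y axis) by the number of libraries of a group in which they were above 0 (x axis), for the 82 members and for all circRNAs found in MII oocytes, PN embryos and sperm. Seen in 1 library only were 45.1% of members against 79.0% of all in MII oocytes, 45.1% against 80.2% in PN embryos and 61.0% against 87.5% in sperm. The rule favours circRNAs that are easily detected, and these differences were not tested.

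UBAP2, which encodes a protein with a ubiquitin-associated domain, gave the most abundant member, circRNA450 (chromosome 10, 32755707 to 32897260 for the gene). It was counted 3537, 3592 and 3602 times in MII oocytes and 5244, 5197 and 5513 times in PN embryos. These counts were 15.1% ± 0.608 of the oocyte libraries and 21.7% ± 1.61 of the embryo libraries (SD, n = 3), without overlap. Sperm replicate 1 had 0 counts and replicate 2 had 4, so that the loop was a member through 4 counts in 1 sperm library. Its pooled share was 12222 times higher in MII oocytes than in sperm, with an exact 95% interval of 4772 to 44864 that covers counting error only. Between PN embryos and MII oocytes the log2 fold change was 0.52, below the limit of 1, with an adjusted p of 1.29e-15 (edgeR, scaled to the library total). That p was 0.235 with TMM scaling, 0.495 with DESeq2 and 0.726 with all 3 groups in 1 fit, so the p depended on the scaling and on the groups fitted together. UBAP2 gave 10 circRNAs, and circRNA450 held 73.9% of the gene's circRNA counts in oocytes and 75.8% in embryos. The second of these, circRNA453, was at 1217, 1066 and 1329 counts in oocytes and 1522, 1898 and 1553 in embryos, but at 0 in both sperm libraries, and so was no member.

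Of the 5 members with the highest shares in sperm, 3 had 5 counts or fewer in each oocyte and embryo library, and the other two, from XPO4 and ERI3, reached 172 and 101 counts in a PN embryo library. WDR27, a WD-repeat gene whose role is little known (chromosome 1, 578491 to 720106), gave circRNA199 with 6309 and 5518 counts in sperm, 3.67% ± 0.540 of the library (SD, n = 2). In MII oocytes it had 1, 0 and 0 counts and in PN embryos 5, 0 and 0. The pooled share in sperm was 2596 times that in MII oocytes, with an exact interval of 466 to 102549, and 539 times that in PN embryos, with an interval of 231 to 1661. The 2 sperm libraries were far above all others, and the oocyte and embryo libraries overlapped.

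XPO4, an exportin that carries proteins out of the nucleus (chromosome 11, 1104270 to 1208144), gave circRNA905 with 3877 and 3104 counts in sperm. This loop was also counted 0, 51 and 5 times in MII oocytes and 2, 57 and 172 times in PN embryos. The embryo and oocyte libraries overlapped, and each group varied widely. ERI3, of a family of exoribonucleases (chromosome 6, 166957241 to 167082631), gave circRNA63 with 2377 and 4081 counts in sperm, 33, 0 and 1 in MII oocytes and 0, 0 and 101 in PN embryos. In both oocytes and embryos its count came almost wholly from 1 library.

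RRP1, a factor of ribosomal RNA processing (chromosome 13, 206722591 to 206736000), gave circRNA1330 with 2059 and 2161 counts in sperm. It had 1 count in MII oocyte replicate 3 and 1 in PN embryo replicate 1. Its pooled share in sperm was 926 times that in MII oocytes (interval 166 to 36596) and 962 times that in PN embryos (interval 173 to 38003). PPA2, the inorganic pyrophosphatase of mitochondria (chromosome 8, 116249531 to 116333847), gave circRNA1282 with 1998 and 2118 counts in sperm, 0, 0 and 2 in MII oocytes and 1, 1 and 0 in PN embryos. For these members, presence in oocytes and embryos rested on 1 or 2 counts.

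In all, 14 members reached 1000 counts in a sperm library, of 26 circRNAs that did so in the table. Of these 14 members, 7 stayed under 10 summed counts both in MII oocytes and in PN embryos, and 4 summed to 10 or more in both groups.

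The members with the highest shares in MII oocytes and PN embryos after UBAP2 were above 0 in at least 2 libraries of both groups. Their counts varied within groups, and all but the SMAD4 loop were at 0 in 1 sperm library. RBM6, an RNA-binding protein (chromosome 13, 32444944 to 32569818), gave circRNA370 with counts of 51, 65 and 369 in MII oocytes, 0, 131 and 101 in PN embryos, and 628 and 0 in sperm. Its oocyte mean of 0.70% was carried by replicate 3. SMAD4, the SMAD protein shared by TGF-beta and BMP signalling (chromosome 1, 100521843 to 100633501), gave circRNA221 with counts of 45, 258 and 156 in MII oocytes, 80, 28 and 269 in PN embryos, and 722 and 113 in sperm. It was 0.648% of the oocyte, 0.517% of the embryo and 0.265% of the sperm libraries on average, and all groups overlapped.

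ZMYND11, a reader of a methylated histone variant (chromosome 10, 69159456 to 69295640), gave circRNA461 with counts of 153, 116 and 172 in MII oocytes, 205, 88 and 124 in PN embryos, and 2 and 0 in sperm. Oocytes and embryos overlapped, and the pooled share in MII oocytes was 1005 times that in sperm, with an interval of 276 to 8321. B3GALNT2, a glycosyltransferase that acts on dystroglycan, gave circRNA540 with counts of 59, 153 and 192 in MII oocytes, 129, 168 and 136 in PN embryos, and 609 and 0 in sperm. Its shares were alike in oocytes (0.574%) and embryos (0.585%).

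CDC42BPA, a kinase that acts downstream of CDC42 on the cytoskeleton (chromosome 10, 14649278 to 14940988), gave circRNA439, the second in PN embryos with 0.761% of the library. Its counts were 77, 19 and 3 in MII oocytes, 171, 112 and 273 in PN embryos, and 0 and 707 in sperm. The embryo libraries were all above the oocyte libraries, but the log2 fold change of 2.47 ± 1.53 (SE) had an adjusted p of 0.776 (edgeR). By mean share, 37 members were highest in sperm, 27 in PN embryos and 18 in MII oocytes, whereas by mean count, which follows the depth, 58 were highest in sperm.

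Detection in at least 2 libraries of every group held for 13 members, and in all 8 libraries for 4, which were circRNA356 from PPA2, circRNA221 from SMAD4, circRNA441 from CDC42BPA and circRNA392 from NAALADL2. PPA2 circRNA356 had counts of 80, 49 and 2 in MII oocytes, 2, 1 and 1 in PN embryos, and 1051 and 1196 in sperm. MII oocyte replicate 3 and PN embryo replicate 1 both had 2 counts, under the floor of 3, so that its lower share in every PN embryo library than in any MII oocyte library rested there on the library totals. The log2 fold change was -4.91 ± 3.43 (SE), with an adjusted p of 0.776 (edgeR). CDC42BPA circRNA441 had counts of 36, 23 and 5 in MII oocytes, 27, 85 and 68 in PN embryos, and 267 and 1 in sperm. By share of the library, sperm replicate 2 was the lowest of the 8 for this loop, and replicate 1, at 0.171%, lay among the others.

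NAALADL2, a gene related to glutamate carboxypeptidases (chromosome 13, 112850111 to 114215614), gave circRNA392 with counts of 6, 4 and 71 in MII oocytes, 132, 75 and 124 in PN embryos, and 1 and 1 in sperm. The pooled share in PN embryos was 726 times that in sperm, with an interval of 199 to 6020. Each embryo library had a higher count than any oocyte library, but the shares of MII oocyte replicate 3 and PN embryo replicate 2 overlapped.

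The other recurrent members were mostly highest in sperm. DNAJB6, a co-chaperone of the HSP40 family, gave circRNA568 with counts of 116, 109 and 0 in MII oocytes, 0, 1 and 1 in PN embryos, and 1321 and 658 in sperm. MII oocyte replicate 3 was as low as the embryos, and the other two oocyte libraries were above 100 counts. SLC5A10, a sugar cotransporter, gave circRNA287 with counts of 94, 63 and 0 in MII oocytes, 0, 58 and 1 in PN embryos, and 461 and 367 in sperm. By share, sperm and MII oocytes overlapped for both loops. DNAJB6 reached 0.479% in an oocyte library against 0.848% and 0.392% in sperm, and SLC5A10 reached 0.388% against 0.296% and 0.219%. SLC5A10 shares in sperm and PN embryos overlapped as well.

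LDHC, the lactate dehydrogenase of testis and sperm (chromosome 2, 40748567 to 40810114), gave circRNA176 with counts of 15, 0 and 7 in MII oocytes, 5, 116 and 7 in PN embryos, and 648 and 270 in sperm. The gene is a sperm marker, yet its loop was in 2 oocyte libraries and, at 116 counts, in PN embryo replicate 2. QRICH1, a regulator of transcription, gave circRNA369 with counts of 7, 0 and 1 in MII oocytes, 2, 0 and 2 in PN embryos, and 733 and 556 in sperm. ABI2, of the WAVE complex that drives actin branching, gave circRNA507 with counts of 1, 1 and 2 in MII oocytes, 5, 18 and 0 in PN embryos, and 275 and 59 in sperm. An unnamed gene, ENSSSCG00000007001, gave circRNA462 with counts of 60, 1 and 0 in MII oocytes, 2, 0 and 2 in PN embryos, and 923 and 1399 in sperm. In these 4 members both sperm counts were above every count in the other groups, but LDHC shares in sperm and PN embryos overlapped, as did those of ABI2.

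MCM6, a subunit of the replicative helicase, gave circRNA485 with counts of 29, 9 and 124 in MII oocytes, 71, 117 and 0 in PN embryos, and 332 and 232 in sperm. MGA, a transcription factor of a Polycomb complex, gave circRNA786 with counts of 0, 2 and 79 in MII oocytes, 0, 36 and 140 in PN embryos, and 269 and 304 in sperm. Both were spread over all groups in share, with averages of 0.118% to 0.252% and ranges that overlapped.

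**Figure D4:**
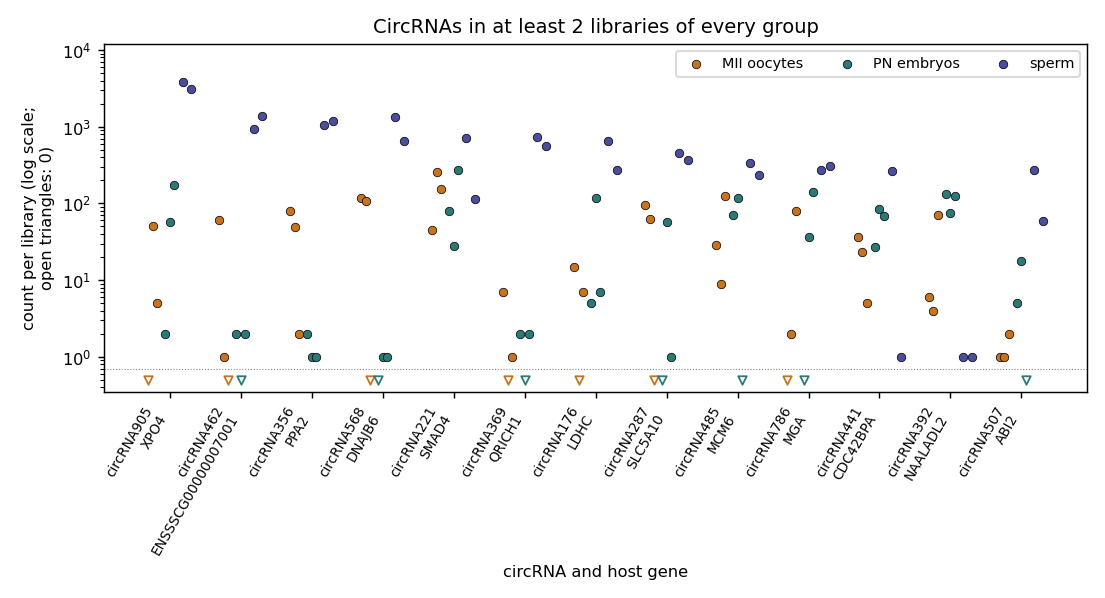
Counts per library on a log axis (y axis) of the 13 members above 0 in at least 2 libraries of each group (x axis), with 1 point for each library and open triangles at the foot for counts of 0. Both sperm points lie above all others for 10 of the 13, all but SMAD4, CDC42BPA and NAALADL2, and below them for NAALADL2, at 1 and 1 counts, and sperm libraries hold more counts in all than the other libraries.

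By lists of host gene symbols, 55 members fell into 11 lists of roles and 27 into none. The lists were drawn up with the members known, so that how many of a list's genes had a member is no measure of the role. The lists are not complete, each gene stands in 1 list, and their counts are of listed symbols. The list of germ cell and meiosis genes had circRNAs from 12 genes and members from LDHC, TCFL5 and SMC1B. TCFL5, a transcription factor of spermatogenesis, gave circRNA470 with counts of 170, 0 and 0 in MII oocytes, 51, 113 and 43 in PN embryos, and 0 and 51 in sperm. SMC1B, the cohesin subunit of meiosis, gave circRNA647 with counts of 0, 27 and 40 in MII oocytes, 19, 43 and 2 in PN embryos, and 1 and 0 in sperm. By mean share the LDHC loop was highest in sperm, the TCFL5 loop in PN embryos and the SMC1B loop in MII oocytes. For the latter loops MII oocytes and PN embryos overlapped, with mean shares of 0.234% and 0.276% for TCFL5 and of 0.0960% and 0.0849% for SMC1B.

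The cilium and flagellum list gave members from 3 of its 20 host genes, among them both loops of WDR27, although its role is little known. The host ENSSSCG00000011892, whose symbol is CFAP91, a protein of cilia and flagella, was not in the list, and its circRNA891 had counts of 0, 1 and 6 in MII oocytes, 0, 0 and 1 in PN embryos, and 759 and 0 in sperm. KIFAP3, the adaptor of the kinesin that moves cargo in cilia, gave ciRNA11, the 1 member with the prefix ciRNA, of 46 in the table. It had counts of 0, 0 and 2 in MII oocytes, 0, 1 and 0 in PN embryos, and 1056 and 0 in sperm. CFAP44, a protein of the sperm axoneme, gave circRNA894 with counts of 0, 47 and 1 in MII oocytes, 0, 81 and 0 in PN embryos, and 80 and 0 in sperm, so that its share was not highest in sperm.

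DNA replication and repair genes gave members from 5 of 24 host genes, of which 3 members had their highest mean share in sperm and 2 in PN embryos. DTL, which marks replication factors for degradation, gave circRNA331 with counts of 3, 8 and 8 in MII oocytes, 0, 52 and 0 in PN embryos, and 338 and 721 in sperm. FANCL, a ubiquitin ligase of the Fanconi anaemia pathway, gave circRNA1147 with 63 counts in MII oocyte replicate 3, 203 in PN embryo replicate 3 and 1 in sperm replicate 1. REV1, a polymerase that copies past DNA lesions, gave circRNA134 with 54 counts in MII oocyte replicate 1, 29 in PN embryo replicate 3 and 380 in sperm replicate 2. The loops of FANCL and REV1 were at 0 in the other 5 libraries. The fifth host gene was FANCI, and the list of centrosome, spindle and cell cycle genes had 1 of 28.

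CEP63, which acts in centriole duplication, gave that member, circRNA379, with counts of 18, 0 and 4 in MII oocytes, 129, 65 and 181 in PN embryos, and 0 and 49 in sperm. It was higher in each PN embryo library than in any oocyte library, with a log2 fold change of 4.05 ± 2.20 (SE) and an adjusted p of 0.776 (edgeR). Its mean share was 0.515% in PN embryos, 0.0306% in MII oocytes and 0.0146% in sperm.

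Chromatin and transcription was the list with the most members, 12 from 8 of 49 host genes, 6 highest in sperm, 4 in PN embryos and 2 in MII oocytes. After SMAD4, ZMYM4, a zinc finger protein, gave the second by share, circRNA42, with counts of 157, 54 and 76 in MII oocytes, 26, 0 and 0 in PN embryos, and 494 and 518 in sperm. All embryo libraries were below all oocyte libraries in share, and the log2 fold change of -3.40 ± 2.39 (SE) had an adjusted p of 0.776 (edgeR). MGA and QRICH1 came next.

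RNA binding, splicing and decay gave 6 members from 5 of 39 host genes, with 2 highest in each group. Besides ERI3, RRP1 and RBM6, SND1, a nuclease that takes part in RNA silencing, gave circRNA1030 with counts of 0, 2 and 29 in MII oocytes, 96, 35 and 3 in PN embryos, and 0 and 58 in sperm. Nuclear transport gave XPO4 and XPO6, of 18 host genes, and both were highest in sperm by mean share. XPO6 circRNA1142 had counts of 0, 0 and 1 in MII oocytes, 1, 0 and 0 in PN embryos, and 0 and 26 in sperm, so that its rank rested on 1 sperm library.

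Membrane traffic and the Golgi gave 9 members from 8 of 37 host genes, of which 4 were highest in sperm, 4 in PN embryos and 1 in MII oocytes. DENND1B, an exchange factor for a Rab GTPase, gave circRNA930 with counts of 0, 85 and 1 in MII oocytes, 0, 109 and 0 in PN embryos, and 986 and 2175 in sperm. VPS50, of a complex that recycles endosomal cargo, gave circRNA304 with counts of 146, 36 and 23 in MII oocytes, 38, 123 and 84 in PN embryos, and 1710 and 0 in sperm. SNX25, a sorting nexin, gave circRNA490 with counts of 3, 80 and 6 in MII oocytes, 21, 0 and 176 in PN embryos, and 571 and 0 in sperm. VPS50, SNX25 and B3GALNT2 were all above 500 counts in sperm replicate 1 and at 0 in sperm replicate 2. COG5, of a tethering complex of the Golgi, gave circRNA316 with counts of 39, 40 and 47 in MII oocytes, 21, 19 and 18 in PN embryos, and 92 and 0 in sperm. It varied little within oocytes and within embryos. Its share was lower in every embryo library than in any oocyte library, with a log2 fold change of -1.17 ± 2.74 (SE) and an adjusted p of 0.998 (edgeR). This SE and p rest on a dispersion estimated with all circRNAs tested, not on the spread of this loop alone.

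Mitochondria and metabolism gave 8 members from 7 of 16 host genes. Besides PPA2 and SLC5A10, HIBADH, an enzyme of valine breakdown, gave circRNA590 with counts of 105, 9 and 0 in MII oocytes, 0, 32 and 92 in PN embryos, and 18 and 0 in sperm. The other four were BCKDHB, SLC37A3, DNAJC11 and SLC25A13. By mean share, 3 of the 8 were highest in sperm, 3 in PN embryos and 2 in MII oocytes.

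The ubiquitin system list gave 4 members from 45 host genes, and did not hold MIB1 or FANCL, which are ubiquitin ligases too. RANBP9, of the CTLH ubiquitin ligase, gave circRNA1038 with counts of 0, 0 and 6 in MII oocytes, 1, 2 and 3 in PN embryos, and 1346 and 0 in sperm. MARCHF7, a ubiquitin ligase, gave circRNA494 in replicate 1 of each group alone, with 52, 83 and 335 counts. In the other libraries MARCHF7 was at 0. BIRC2, an inhibitor of apoptosis, gave circRNA1244 with counts of 0, 0 and 41 in MII oocytes, 16, 1 and 20 in PN embryos, and 112 and 0 in sperm. TAX1BP1, an autophagy receptor, gave circRNA588 with counts of 22, 7 and 15 in MII oocytes, 25, 0 and 0 in PN embryos, and 1 and 0 in sperm. Of 4 chaperone host genes DNAJB6 had a member.

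Of the 73 host genes, 64 gave 1 member and 9 gave 2. Loops of the same gene did not always go together across the groups. PPA2 circRNA1282 was at counts of 0, 0 and 2 in MII oocytes where circRNA356 was at 80, 49 and 2, although both were near 0 in PN embryos and high in sperm. WDR27 circRNA1187 followed circRNA199, with counts of 0, 0 and 2 in MII oocytes, 0, 1 and 1 in PN embryos, and 2076 and 1133 in sperm. No other WDR27 circRNA was in the table.

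SMAD4 circRNA1199 had counts of 0, 0 and 32 in MII oocytes, 16, 0 and 0 in PN embryos, and 623 and 1 in sperm, so that it was above 0 in fewer libraries than circRNA221. MGA circRNA785, with 0, 4 and 0, with 0, 1 and 74, and with 0 and 91 counts in MII oocytes, PN embryos and sperm, was found in sperm replicate 2 only. KDM5B, a histone H3K4 demethylase, gave circRNA1353 with counts of 0, 0 and 1 in MII oocytes, 0, 0 and 3 in PN embryos, and 769 and 442 in sperm. Its circRNA1352 had 0, 0 and 1, then 1, 1 and 0, and 118 and 0 counts in the same order. In oocytes both KDM5B loops rested on 1 count in replicate 3.

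PHC3, a Polycomb protein, gave circRNA389 with counts of 3, 37 and 17 in MII oocytes, 3, 59 and 14 in PN embryos, and 629 and 0 in sperm. Its circRNA1311 was found in MII oocyte replicate 3 (33 counts), PN embryo replicate 1 (103 counts) and sperm replicate 1 (34 counts) alone. Neither PHC3 loop was found in sperm replicate 2. PAN3, a subunit of the deadenylase that shortens poly(A) tails, gave circRNA419 with counts of 2, 5 and 66 in MII oocytes, 3, 4 and 39 in PN embryos, and 1 and 0 in sperm. Its circRNA418 had counts of 21, 4 and 1 in MII oocytes, 25, 0 and 0 in PN embryos, and 0 and 11 in sperm. The PAN3 loops were high in different libraries, circRNA419 in replicate 3 and circRNA418 in replicate 1 of both groups. The second MAN1A2 loop, circRNA687, had counts of 0, 55 and 4 in MII oocytes, 65, 1 and 0 in PN embryos, and 27 and 0 in sperm, against the sperm-high circRNA686.

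**Figure D5:**
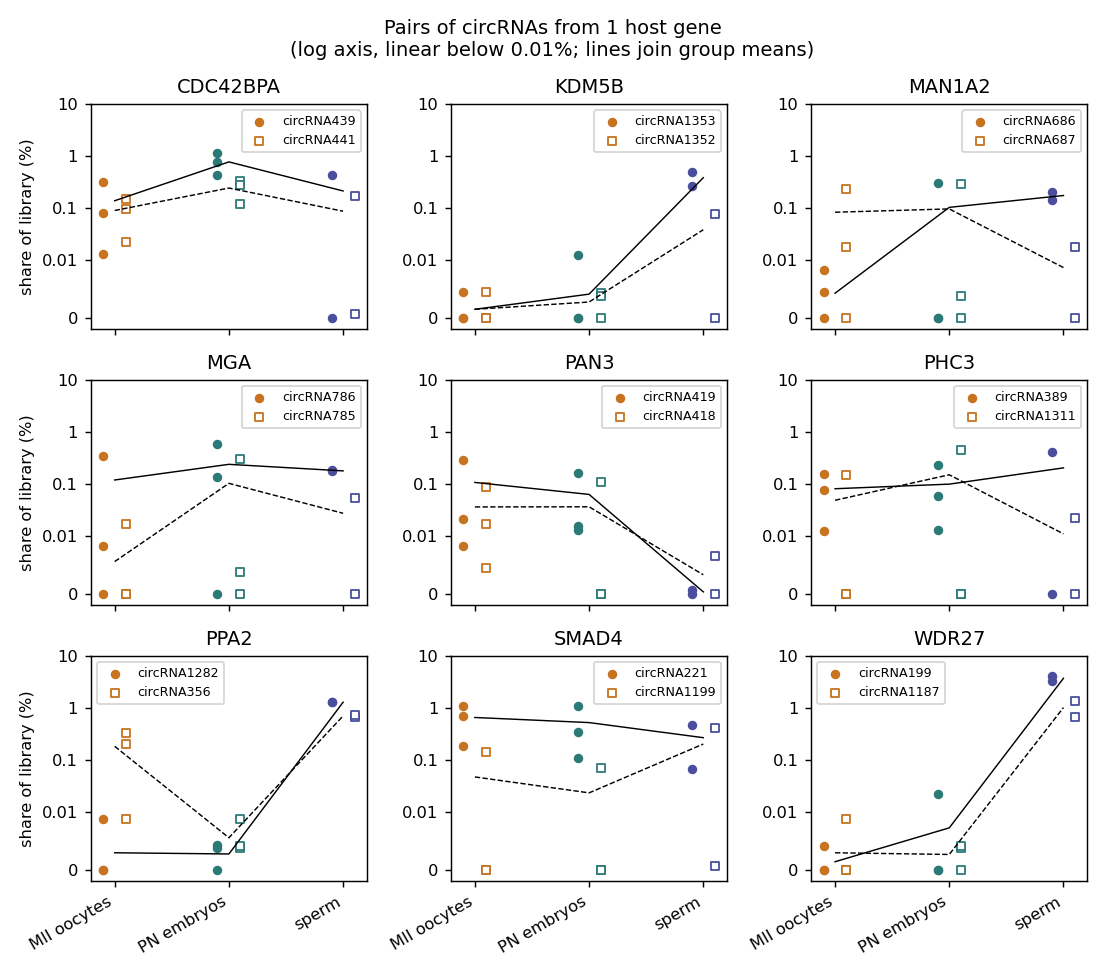
Share of all circRNA counts in percent (y axis, a log axis that is linear below 0.01%) of both members of each of the 9 host genes with a pair (panels), in MII oocytes, PN embryos and sperm (x axis), with 1 point for each library, filled circles and open squares for the members, and lines that join the group means. The WDR27 loops lie together, whereas the PPA2 loops part in MII oocytes, at mean shares of 0.00292% and 0.181%.

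The host genes tended to give several circRNAs. Their median was 2 circRNAs a gene, against 1 over all host genes, and 24.7% gave 5 or more, against 4.69%. A gene with more circRNAs has more chances to hold a member, so that no test was made. In 19 host genes all circRNAs were members, while the other 54 gave 176 further circRNAs. In MAN1A2 the members held 35.6% of the host gene's counts in MII oocytes, 64.1% in PN embryos and 81.3% in sperm, and in PAN3 they held 52.7%, 29.7% and 2.52%.

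The lncRNA table, whose values are read coverage along each transcript, named transcripts after 47 of the 73 host genes. Whether these are lncRNAs at the gene or pieces of its own mRNA is not known here, so that the values are not levels of the host mRNA. Coverage was above 0 in at least 1 MII oocyte library for 39 of these, in PN embryos for 38 and in sperm for 35, and in each group for 24 (51.1%, against 56.2% of all host genes so named). HIBADH had coverages of 819, 674 and 602 in MII oocytes, 796, 1185 and 758 in PN embryos, against 0.16, 0.74 and 0.47 in sperm, where this table holds 3 different libraries. NAALADL2 had 606, 704 and 624 in MII oocytes, 882, 861 and 667 in PN embryos, and was listed at 0 in sperm. A value of 0 in this table can be a failed estimate and is not read as absence, since XPO6, for one, was at 562, 638 and 0 in sperm. WDR27, whose loops led in sperm, was covered at 0, 0 and 3485 in sperm, at 0, 0 and 2 in MII oocytes and at 2, 0 and 214 in PN embryos. PAN3, whose member loops were at 12 counts in sperm, was covered at 866, 809 and 278 there, and at 57.0, 0.80 and 10 in MII oocytes. The depth behind these coverages is unknown, and no test was made of them.

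The same counts were compared between groups with edgeR over all circRNAs above 0 in at least 3 libraries of the pair of groups, a filter that 58, 59 and 58 members passed. A circRNA was called when its log2 fold change was 1 or more in size and its adjusted p was under 0.05. Between PN embryos and MII oocytes, 0 of 58 members were called, as of all 270 circRNAs tested (0%), with 2 members and 15 circRNAs at an unadjusted p under 0.05. DESeq2 called 0 members and 2 circRNAs in all. Library shares did not overlap for 3 members that were higher in PN embryos, UBAP2 circRNA450, CDC42BPA circRNA439 and CEP63 circRNA379, against 5.19% of all circRNAs tested. They did not overlap for 4 that were lower, COG5, PPA2 circRNA356, ZMYM4 and ST8SIA6, against 6.67%. ST8SIA6, a sialyltransferase, had the largest of these folds, with circRNA455 at counts of 4, 85 and 86 in MII oocytes, 0, 2 and 0 in PN embryos, and 4 and 0 in sperm. Its log2 fold change was -6.33 ± 3.43 (SE), with an adjusted p of 0.776 (edgeR).

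Between sperm and MII oocytes, 16 of 59 members were called, 11 higher and 5 lower in sperm. Of all 123 circRNAs tested 56.9% were called, 13.8% higher and 43.1% lower, and nothing is read from the members' count since the rule used these columns. With 2 sperm libraries, a circRNA found in sperm alone could not pass the filter of 3 libraries, whereas one found in oocytes or embryos alone could. Over all circRNAs 17 were called higher and 53 lower, against 8 and 11 with no filter, 8 and 53 with TMM scaling, and 83 and 54 with sperm replicate 3 counted as a further sample, which also lets sperm circRNAs pass the filter. With TMM scaling 12 members were called, 6 higher and 6 lower, and with DESeq2 22 were, 14 higher and 8 lower. No filter left 5 members called, all 3 groups in 1 fit 8, and a replicate block 0. Library shares did not overlap for 20 of the 59 members that were higher in sperm, beside 28 of all 123 circRNAs tested (22.8%). They did not overlap for 7 of the 59 that were lower, beside 58 of the 123 (47.2%). Called higher in sperm were both WDR27 loops, RRP1, PPA2 circRNA1282, FAM193A, KDM5B circRNA1353, ERI3, QRICH1, XPO4, NFXL1 and MROH2B. All of these but ERI3, QRICH1 and XPO4 passed the filter through both sperm libraries and 1 oocyte library, at 1 or 2 counts. That oocyte library also made them members, so that their folds and p are a description only. NFXL1, MROH2B, QRICH1, ERI3 and XPO4 kept their call with only 1 of TMM and DESeq2. The largest log2 fold changes upward were 11.21 for WDR27 circRNA199 and 9.68 for RRP1, with adjusted p of 0.000709 and 0.00494 (edgeR). Called lower in sperm were UBAP2, ZMYND11, ST8SIA6, NAALADL2 and TAX1BP1. The log2 fold changes of UBAP2 and ZMYND11 were -13.44 and -9.62, with adjusted p of 0.000466 and 0.0111 (edgeR). All 5 were above 0 in every oocyte library, through which they passed the filter. They were members through 4 counts or fewer in a sperm library, so that their folds and p are also a description only. Where a loop had 3 counts or fewer in a group, the fitted fold depends on the prior count. With MII oocyte replicate 1, 2 or 3 left out, 1, 0 and 0 members were called. With sperm replicate 1 or 2 left out, 4 and 2 were, all of them lower in sperm, in fits where the remaining sperm library is assumed to vary like the oocytes.

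Between sperm and PN embryos, 12 of 58 members were called, 9 higher and 3 lower in sperm, beside 30.8% of all 143 circRNAs tested, 10.5% higher and 20.3% lower. The same filter was used, and over all circRNAs 15 were called higher and 29 lower, against 6 and 7 with no filter, 81 and 53 with sperm replicate 3 counted, and 1 and 53 with TMM scaling. Shares did not overlap for 19 of the 58 members that were higher in sperm, beside 39 of all 143 circRNAs tested (27.3%). For 11 of the 58 that were lower they did not overlap either, beside 60 of the 143 (42%). The lower ones called were UBAP2, ZMYND11 and NAALADL2, each also called against MII oocytes, and both comparisons share the sperm libraries. These loops were above 0 in every embryo library and were members through 4 counts or fewer in a sperm library, so that their calls are a description only. With TMM scaling 6 members were called, 1 higher and 5 lower, the higher one being WDR27 circRNA199, and with DESeq2 24 were, 14 higher and 10 lower. No filter left 4 members called, all 3 groups in 1 fit 5, and a replicate block 0. Called higher against PN embryos were both WDR27 and both PPA2 loops, RRP1, FAM193A, DNAJB6, ASB1 and ENSSSCG00000007001. WDR27 circRNA199, RRP1 and ASB1 passed the filter through both sperm libraries and the 1 embryo library that made them members, so that their calls are a description only. PPA2 circRNA356 had a log2 fold change of 6.94 ± 1.64 (SE) against PN embryos, with an adjusted p of 0.0153 (edgeR), and of 1.94 ± 1.48 against MII oocytes, with an adjusted p of 0.294. DNAJB6 circRNA568 had a log2 fold change of 7.78 against PN embryos, with an adjusted p of 0.0180 (edgeR). Whether the fold of either loop differed between the comparisons was not tested. Without any one of the PN embryo libraries 0 members were called against PN embryos, and without sperm replicate 1 or 2, 11. These 11 were 5 higher and 6 lower in both fits, against 9 and 3 with all libraries, and the lone sperm library was assumed to vary like the embryos.

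FAM193A circRNA1266 had counts of 0, 0 and 1 in MII oocytes, 0, 1 and 1 in PN embryos, and 392 and 1251 in sperm. NFXL1 circRNA1273 had 0, 0 and 1, then 1, 1 and 1, and 209 and 148 counts in the same order, and MROH2B circRNA1376 had 0, 0 and 1, then 0, 0 and 1, and 190 and 173. The calls of all 3 set sperm against 1 oocyte count in MII oocyte replicate 3, the library with most members at 1 count. ASB1, of a family of substrate receptors for ubiquitin ligases, gave circRNA1401 with counts of 0, 0 and 26 in MII oocytes, 0, 0 and 1 in PN embryos, and 680 and 427 in sperm.

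The rule had a threshold of 1 count, and the members just inside it with the most counts were WDR27 circRNA199, RRP1 circRNA1330 and FAM193A circRNA1266, each with 1 count in MII oocytes. Just outside, 553 circRNAs were found in exactly 2 groups. The highest were UBAP2 circRNA453, at 0 in sperm, and TESK2 circRNA2050, with 1 count in PN embryo replicate 3 and 1166 and 3843 in sperm. PRKAR1A circRNA1881, from the regulatory subunit of protein kinase A, was at 0 in every MII oocyte library, with counts of 0, 102 and 1 in PN embryos against 1940 and 2393 in sperm.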

How the data were processed

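The circRNA table holds whole-number counts per circRNA, which the authors deposited without normalization, with the host gene of each circRNA. Per the submitters' processing notes, the tools were cutadapt 1.9, TopHat2 2.0.4, HISAT2 2.0.4, StringTie 1.3.4d and edgeR, and the genome build was Sscrofa11.1. The program that called circRNAs is not given in the sources used here. The study's supplement lists values of selected circRNAs as back-splice reads, and whether reads were reduced to distinct molecules is not stated there. The lncRNA table holds read coverage per transcript, as the authors deposited it, and was used only for transcripts named after host genes. The mRNA table was not used here. Of the deposited columns 0 were left unused for want of a sample.

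Samples were grouped by their labels. Because sperm replicate 3 repeats replicate 1 in the circRNA table, 2 sperm libraries entered the circRNA values. The exceptions were the alternatives that counted sperm replicate 3 as a further sample or left a sperm replicate out. Shares are percentages of all circRNA counts in a library, with Wilson intervals at 95%, floors of 3 counts and exact (Clopper-Pearson) intervals for ratios of pooled shares, all of which cover counting error only. The tests used edgeR 4.0.16 in R 4.3.3 (glmQLFit and glmQLFTest), with the total circRNA count as library size, on circRNAs counted in 3 or more libraries of the fit, each pair of groups in a fit of its own and Benjamini-Hochberg adjustment over all circRNAs tested. Each SE is the size of the log2 fold change divided by the square root of the F statistic. The dispersion was estimated with all circRNAs tested, so that SE and p are not the spread of a single loop. The steps were also run on simulated counts whose dispersion was set in advance and not taken from these data. That run does not show how the tests fare on counts that vary between libraries of a group as these do. Alternatives were TMM scaling, DESeq2 1.42.0, no filter, the adjusted p alone, a replicate block, all groups in 1 fit, each replicate left out, sperm replicate 3 as a further sample, and stricter rules of detection. Tables and figures were made in Python 3.11.15 with pandas 2.3.3, scipy 1.17.1 and matplotlib 3.10.9.

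The members and the lists of roles were chosen with earlier results of these data known. Named with values were the members above 0 in at least 2 libraries of each group, the 5 highest by mean share in each group, members of hosts with a pair, up to 10 called in each comparison by size of fold, up to 4 of each list by mean share, and the 3 just inside and outside the rule. circRNA686 is also named as a circRNA of the study, CEP63, COG5, ZMYM4, ST8SIA6, MIB1, CFAP91 and XPO6 for results they bear on, and the other called members beyond 10, all chosen after their values were seen.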

Additional observations from a re-analysis of the deposited data

How the results depend on the processing

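The number of circRNAs found in all groups fell from 82 to 54 with at least 2 counts in a library of each group, to 34 with at least 10, and to 13 with detection in at least 2 libraries of each group. Leaving out each library gave 52 to 77, the lowest without sperm replicate 1 and the next, 58, without MII oocyte replicate 3. Without UBAP2 circRNA450, an alternative chosen after seeing the data, the members' share was 8.01% in MII oocytes and 9.06% in PN embryos, and was 22.6% in sperm.

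Between PN embryos and MII oocytes, the adjusted p alone called 1 member, UBAP2 circRNA450, and the replicate block and each omitted library called 0. Between sperm and MII oocytes, 5 members were called with no filter, 8 with all groups in 1 fit, 0 with the replicate block, and 0 to 4 with each library left out. Between sperm and PN embryos, 6 were called with TMM scaling, 24 with DESeq2, 4 with no filter, 5 with all groups in 1 fit, 0 with the replicate block, 0 to 11 with each library left out, and 19 with sperm replicate 3 counted as a further sample. Fits without a library tested fewer circRNAs and had fewer samples. All called members kept their direction under every alternative in which they were tested, and 164 of their 275 values were no longer past the threshold. TMM moved the median log2 fold change of all circRNAs tested from -4.04 to -4.56 for sperm against MII oocytes, from -0.91 to -3.12 for sperm against PN embryos, and from -0.08 to -0.23 for PN embryos against MII oocytes. Same-numbered MII oocyte and PN embryo libraries correlated at -0.05, 0.13 and -0.02 in their deviations from the group means, across circRNAs, so that the numbers did not show a pairing. With 2 sperm libraries and many counts of 0, absence from a library was not distinguishable from a share under its floor.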
